A study of Mus musculus with 15 samples.

Results

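The replication-dependent histone genes were taken as every probe whose gene name begins with Hist1, Hist2, Hist3 or Hist4, on expression arrays and on promoter arrays of methylated DNA. On the expression arrays 46 of 41174 probes met the rule, for 34 genes. On the promoter arrays 262 of 80567 probes met it, for 64 genes: 6 of H1, 17 of H2A, 17 of H2B, 12 of H3 and 12 of H4. The study set TKO, a mouse embryonic stem (ES) cell line labelled as deficient in DNA methylation and known to lack the DNA methyltransferases Dnmt1, Dnmt3a and Dnmt3b, against J1, a wild-type mouse ES line given as passage 37 in some labels. Both lines were grown with serum and LIF, without feeder cells for 2 passages before harvest. Each side is 1 cultured line, so the p-values measure the spread between passages and arrays of those lines, part of which may be technical. Per the design text, the MeDIP replicates came from different passages and the RNA from the same cultures, and whether any RNA arrays share a passage was not stated.

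Expression was measured on 3 arrays with 2 colours, each holding TKO and J1 RNA, with the dyes swapped on array 2. The labels allow either dye for either line; their order and the stated swap make J1 in Cy5 on arrays 1 and 3 likely, and that reading was used. For the methylated DNA immunoprecipitation (MeDIP), an antibody against methylated DNA was used on 2 ug of genomic DNA of each line. What share of the fragments pulled from either line was methylated was not measured. The DNA labelled TKO (Cy5) and the DNA labelled J1 (Cy3) were hybridised together on 7 arrays of part 1 and 7 arrays of part 2 of a promoter set, which hold different promoters. These dyes were never swapped, so dye and line cannot be told apart in any MeDIP value. All ratios are log2(TKO/J1) or log2(labelled TKO/labelled J1), so that a positive value lies on the TKO side. No MeDIP value is read here as more or less methylation of either line. Positive ratios here stand for the Cy5 channel, which the labels give to TKO.

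Replication-dependent histone genes supply the core histones H2A, H2B, H3 and H4 and the linker histone H1 that package newly copied DNA in S phase. They sit in clusters, the largest of which is Hist1 on mouse chromosome 13, and their short messages have no introns and end in a conserved stem-loop instead of a poly(A) tail. Npat, a substrate of cyclin E and Cdk2, switches them on, and Slbp binds the stem-loop and guides processing and decay of the message. A few members are testis forms made as germ cells mature, among them Hist1h1t, Hist1h2aa and Hist1h2ba. The RNA here was labelled with a linear amplification kit of a kind primed by oligo-dT. A probe that reads the long polyadenylated forms of a gene and one that reads the stem-loop form cannot be told apart from these files.

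Promoter sequence was taken from RefSeq (assembly GRCm38.p6) as the 250 bases before and 50 bases after each gene's start, and 46 of the 64 genes matched. Of the promoters below, Hist1h1b had the highest MeDIP ratio, Hist1h3b had the lowest, and Hist1h2ba is one side of a divergent pair with Hist1h2aa that lay on the labelled TKO side. They are printed 5′ to 3′ on the strand of the gene, with CpG dinucleotides in capitals. The MeDIP ratios are of whole regions, which reach beyond these windows. The highest probes of Hist1h1b and Hist1h2ba lie outside their windows. Hist1h1b (now H1f5, encoding linker histone H1.5; chr13:21780576-21780875, minus strand) has 15 CpG. Hist1h3b (now H3c2, a canonical H3; chr13:23752095-23752394, plus strand) has 7. Hist1h2ba (now H2bc1, testis H2B; chr13:23934107-23934406, minus strand) has 7, and its start lies 280 bases from that of Hist1h2aa (now H2ac1, testis H2A), whose window shares 220 bases with it on the opposite strand.
Hist1h1b: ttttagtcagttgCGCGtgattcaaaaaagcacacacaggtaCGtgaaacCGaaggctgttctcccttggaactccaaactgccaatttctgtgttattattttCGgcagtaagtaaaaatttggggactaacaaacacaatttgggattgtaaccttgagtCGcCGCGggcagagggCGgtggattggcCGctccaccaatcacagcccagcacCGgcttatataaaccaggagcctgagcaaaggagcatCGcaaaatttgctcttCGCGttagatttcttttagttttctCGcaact
Hist1h3b: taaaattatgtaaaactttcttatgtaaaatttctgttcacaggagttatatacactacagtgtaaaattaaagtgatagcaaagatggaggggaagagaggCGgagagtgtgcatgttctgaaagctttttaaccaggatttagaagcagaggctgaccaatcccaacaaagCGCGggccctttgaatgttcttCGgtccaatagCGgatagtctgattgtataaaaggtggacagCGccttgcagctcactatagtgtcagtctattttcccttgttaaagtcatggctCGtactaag
Hist1h2ba: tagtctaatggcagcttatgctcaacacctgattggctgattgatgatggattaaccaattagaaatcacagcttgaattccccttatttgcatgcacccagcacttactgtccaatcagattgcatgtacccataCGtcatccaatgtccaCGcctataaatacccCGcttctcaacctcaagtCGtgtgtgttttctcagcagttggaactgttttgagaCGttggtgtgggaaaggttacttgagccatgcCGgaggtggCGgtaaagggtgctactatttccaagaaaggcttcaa

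The 46 windows held a median of 10.5 CpG (3 to 41), against 7 over all 27025 RefSeq promoters. Their classes carried different letters when 6 short motifs were searched on both strands, none of which contains another. TATAAA, the TATA box, was in 60.9% of the histone windows, against 14.2% of all promoters. CCAAT was in all 6 H1, all 15 H2A, all 10 H2B and all 6 H3 windows but in 2 of 9 H4 windows (37.9% of all promoters). ATTTGCAT, the octamer read by Oct factors, was in 7 of 15 H2A and 5 of 10 H2B windows and in no H1, H3 or H4 window (1.75% of all promoters). GGTCCG, the core of an element of H4 genes, was in 8 of 9 H4 windows, 1 H2B window and no other (8.39% of all promoters). AAACACA, the H1 box, was in 5 of 6 H1, 2 H2A and 2 H2B windows (7.14% of all promoters). GGGCGG, the GC box, was in 8 of 9 H4, 4 of 6 H1, 5 of 15 H2A, 1 of 6 H3 and none of 10 H2B windows (35.9% of all promoters). These matches describe the letters of the windows, and whether any factor binds them was not measured.

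The labels were checked first. Dnmt3b was at -2.72, -2.44 and -2.34 on arrays 1, 2 and 3 (mean -2.50). The Dnmt3a probe that was above background in both lines was at -2.49 and -2.23 on the 2 arrays with a usable spot, and Dnmt1 at -0.89 and -1.25. Between 38.6% and 66.8% of expression probes were well above background in a line on an array, and array 3 had 8386 spots marked as uneven, which were left out. Thus several histone probes have a value on arrays 1 and 2 only. On the MeDIP arrays 88.2% to 99.7% of probes were above background in a channel, and arrays of one part correlated at r = 0.34 to 0.79 across probes, which are not independent. The ES markers Nanog (0.67) and Klf4 (0.99) were higher and Pou5f1 (-0.72), Sox2 (-0.80) and Esrrb (-0.45) lower in TKO among 10 probes tested. All 14 tested probes of primitive endoderm markers were higher in TKO, and their summed signal was 4034 to 13511 in TKO and 1808 to 6726 in J1, lowest on array 3, where fewer probes had a usable spot. Of the fibroblast markers, 4 of 7 probes were higher and 1 lower, with a summed signal of 1778 to 5284 in TKO and 1330 to 5256 in J1. The single trophoblast marker probe tested, Gata3, was at 2.01. The part of these other cells in the histone values was not tested.

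Most replication-dependent histone genes showed no change in RNA that passed the test, and a smaller share passed in either direction than of all tested probes. Of the 33 probes bright enough to test (28 genes), 1 was higher in TKO, where 16% of all tested probes were, and 4 were lower, where 14.7% were. The linker histone gene Hist1h1b was higher, and Hist1h1c, Hist3h2a, Hist3h2ba and Hist1h4i were lower. In all, 25 of the 33 probes lay below 0, with a median of -0.12 against -0.00 over the 18606 probes tested. By array, the median of the histone probes was -0.34, -0.03 and 0.02 on arrays 1, 2 and 3. The other 13 probes were not well above background often enough to test, among them Hist2h2be at -0.37, -0.28 and -0.22. Adjusted p-values are from limma, with Benjamini-Hochberg adjustment over all tested probes. Paralogs of a core histone class can be near-identical, so a probe may read its neighbours too. Fewer cells with a message and less message per cell cannot be told apart in bulk RNA.

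Of the 6 linker histone probes tested, 1 was higher in TKO, 1 was lower and 4 did not pass. Hist1h1b had log2 signals of 8.38 and 7.89 in TKO, against 7.65 and 7.54 in J1, on arrays 1 and 2. TKO was the higher line on both, by 0.73 and 0.35, with a mean of 0.54 ± 0.26 (SD, n = 2 arrays; limma adjusted p = 0.0094). That call was lost when arrays were centred on their median in place of loess (0.58, adjusted p = 0.16) and with no filter on dim probes (adjusted p = 0.059). Hist1h1c, which encodes H1.2, had log2 signals of 9.37, 9.44 and 10.90 in TKO, against 10.41, 10.40 and 11.55 in J1. TKO was lower on each array, by -1.04, -0.97 and -0.65, and the mean was -0.89 ± 0.21 (n = 3; adjusted p = 0.00016). Hist1h1e, encoding H1.4, was at 0.31 and 0.15 and did not pass the test (mean 0.23, adjusted p = 0.13). Hist1h1a was at 0.18 and -0.04 and Hist1h1d at -0.02 and -0.03. The testis form Hist1h1t was at 0.08, 0.09 and 0.20 (mean 0.13 ± 0.07, adjusted p = 0.26). Its log2 signals were low, at 6.30, 6.20 and 7.08 in TKO, against 6.22, 6.11 and 6.88 in J1.

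Of 10 tested H2A probes, 1 passed the test, Hist3h2a. All 10 means lay below 0, from -0.996 to -0.11, with a median of -0.19, but 4 of the 6 probes measured on array 3 were above 0 there. The probe of Hist1h2ab was at -0.60, -0.47 and 0.75, the widest spread of any member (SD 0.74, adjusted p = 0.74). Hist3h2a, in the small Hist3 cluster, had log2 signals of 8.41 and 8.39 in TKO, against 9.41 and 9.38 in J1, at its probe A_52_P615375. The ratios were -1.0 and -0.99, and the mean was -0.996 ± 0.010 (n = 2; adjusted p = 0.00019). A second Hist3h2a probe was at -0.45 and -0.17 (mean -0.31, adjusted p = 0.064), and the remaining one was not tested. The probes of this gene thus agree in sign and differ in size. The bright probe A_52_P165633 of Hist1h2af was at -0.37, -0.19 and 0.12 (adjusted p = 0.30), below 0 on arrays 1 and 2 and above it on array 3. Hist2h2ac varied little, at -0.20, -0.19 and -0.17 (adjusted p = 0.098). The testis form Hist1h2aa was at -0.34 and -0.11 (mean -0.22 ± 0.16, adjusted p = 0.15). Its probe was bright, with log2 signals of 14.55 and 15.02 in TKO, against 14.89 and 15.13 in J1. Whether this probe reads other H2A messages too was not tested.

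Of 8 H2B probes only Hist3h2ba passed, and it lies in the same small cluster as Hist3h2a. It had log2 signals of 8.87, 8.69 and 10.32 in TKO, against 9.57, 9.46 and 10.67 in J1. TKO was lower on each array, at -0.70, -0.77 and -0.35, with a mean of -0.61 ± 0.23 (n = 3; adjusted p = 0.0016). The other H2B probes had means from -0.13 to 0.02, and their neighbour Hist3h2bb was at -0.34, 0.12 and -0.15. The testis form Hist1h2ba was at -0.29, 0.08 and 0.03 (mean -0.06 ± 0.20, adjusted p = 0.68). Of H3, 2 probes were bright enough, and neither passed. Hist1h3d was at -0.23, -0.03 and -0.36 (mean -0.20, adjusted p = 0.11), and Hist2h3c1 at -0.14 and 0.01.

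The H4 probes were the least steady between arrays. Hist1h4i was the exception, with log2 signals of 7.90, 7.95 and 9.09 in TKO, against 8.46, 8.51 and 9.42 in J1. Its ratios of -0.57, -0.56 and -0.33 gave a mean of -0.49 ± 0.14 (n = 3; adjusted p = 0.0025). The other 6 H4 probes were below 0 on array 1 and above 0 on array 2 and, where measured, on array 3. Hist4h4, for example, was at -0.62, 0.09 and 0.49, and Hist1h4d at -0.47, 0.22 and 0.54 on probe A_51_P136097, whose mean was 0.10 ± 0.51 (adjusted p = 0.67). Without array 1 that Hist1h4d probe averaged 0.38 (adjusted p = 0.044), and without array 3 it averaged -0.12 (adjusted p = 0.63). The median of the 7 H4 probes was accordingly -0.41, 0.16 and 0.42 on arrays 1, 2 and 3. For H2A it was -0.37, -0.18 and 0.03, and for all 33 probes -0.34, -0.03 and 0.02. Over all tested probes it was within -0.02 and 0.01, where the loess step holds each array near 0 by construction. For H1 it was 0.13, 0.03 and -0.22, in the other order. Without array 1 the median of the member probes was -0.02, and 3 were lower.

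**Figure D1:**
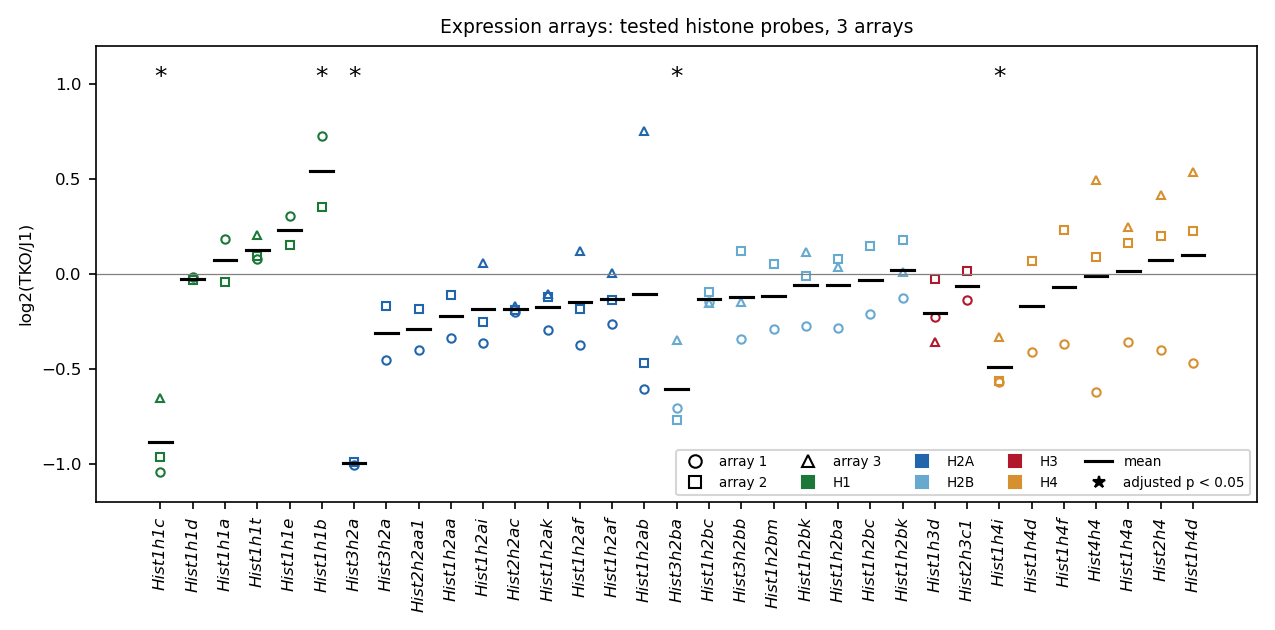
Log2(TKO/J1) of the 33 tested histone probes on the expression arrays, grouped by class; each symbol is 1 array, the bar is the mean over arrays, and a star marks an adjusted p under 0.05. Hist1h1b is the one probe higher in TKO, and the H4 probes other than Hist1h4i lie below 0 on array 1 and above it on array 2.

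The regulators of these messages gave no call. Of 27 tested probes for genes of histone transcription and message processing, 0 passed limma's adjusted threshold in either direction (6 had an unadjusted p under 0.05), against 16% of all probes higher and 14.7% lower. Their median was 0.03. Slbp was at 0.02, 0.41 and 0.05 (mean 0.16, adjusted p = 0.24). The probes of Npat averaged -0.03 and -0.05. Casp8ap2, which works with Npat, was at -0.22, -0.11 and -0.26 (adjusted p = 0.091), and Lsm11, part of the U7 particle that cuts the message, was at 0.32 and 0.18 (adjusted p = 0.10).

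Of 27 probes for histone chaperones, 2 were higher and 1 lower, against the same 16% and 14.7% of all probes, which apply to the next lists too. The H4-binding proteins Rbbp4 (0.55, one of its 3 probes) and Rbbp7 (0.51) were higher, and Asf1a, which hands H3 and H4 to the assembly machinery, was lower (-0.37). Of 18 probes for replication-independent variants, 1 was higher and 6 lower, with a median of -0.25. H3f3a, which encodes the H3.3 variant, was at -0.55, -0.33 and -0.69 on the probe measured on every array (adjusted p = 0.0024). H3f3b, which encodes the same protein, was at -0.59 and -0.41 on one of its probes (adjusted p = 0.0078). Its other probes were at -0.45 and -0.43 (limma adjusted p = 0.011) and at 0.05 and -0.42 (adjusted p = 0.30). H2afv was at -0.53, -0.24 and -0.72 (adjusted p = 0.0050), while H2afy, the macroH2A1 gene, was at 0.56 and 0.66 on one of its probes (adjusted p = 0.0026). Of 24 probes for S phase genes, 1 was higher and 3 lower. The replicative helicase subunit Mcm5 was higher (0.45), and those lower included the polymerase subunit Pola1 (-0.81) and the sliding clamp Pcna (-0.58). The lists hold genes picked with earlier results known, so their counts are a description.

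At their promoters, the histone genes lay mostly on the labelled J1 side of the MeDIP ratio, by small amounts. A promoter region was a run of at least 3 probes of 1 transcript with no gap over 2000 bases. The members gave 48 regions of 15397, for 39 genes, and the other 25 genes had probes and no region of their own. Of the 48 regions, 26 passed the test on the labelled J1 side, where 26.3% of all regions did, and 4 on the labelled TKO side, where 30.9% did. The median of the members was -0.11, against 0.00 over all regions. When each array was centred on its most frequent ratio instead of its median, the split was 7 on the labelled TKO side to 19 on the labelled J1 side. One member, Hist1h1b, passed with a ratio of at least 0.5 on the labelled TKO side (2.55% of all regions did), and 0 passed with a size of 0.5 on the labelled J1 side in limma (0.0844% of all regions did), where the lowest member was at -0.38 whatever its p. Many probes lie between neighbours in the clusters: 99 of the 262 are within 1000 bases of more than 1 histone start, so the regions are not independent of each other.

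Class by class, the regions leaned by different amounts. H3 regions had a median of -0.18, with 5 of 7 past the test on the labelled J1 side, and H2A regions -0.17, with 9 of 14. H4 regions had a median of -0.14, with 7 of 10, and H2B regions -0.06, with 4 of 13. The 4 H1 regions had a median of 0.01, with 1 past the test on each side. With normexp background correction they were at -0.23 (Hist1h1a), -0.09 (Hist1h1b), -0.21 (Hist1h1d) and 0.07 (Hist1h1t). The median of all 48 regions was -0.15 in that setting. On part 2, the medians of H4 over the 7 arrays were -0.21 to -0.11, those of H3 -0.32 to -0.06 and those of H2A -0.37 to -0.02, all below 0 on each array. Those of H2B were -0.19 to 0.03, with 4 of 7 arrays below 0, and those of H1 -0.15 to 0.24. The class medians were compared with no test. The class values above include regions farther from a start. Among the 39 regions with a probe within 1000 bases of the start, 25 passed on the labelled J1 side and 3 on the other, with a median of -0.13. Of these, H3 regions had a median of -0.22 (5 of 6 past the test on the labelled J1 side) and H2A regions -0.17 (8 of 12). H4 regions were at -0.14 (7 of 10), H2B regions at -0.10 (4 of 8) and H1 regions at 0.14 (1 of 3). The shares given for all regions are not limited to a start. Among all starts fitted with every probe within 1000 bases, 32.6% passed on the labelled J1 side and 25.7% on the labelled TKO side.

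**Figure D2:**
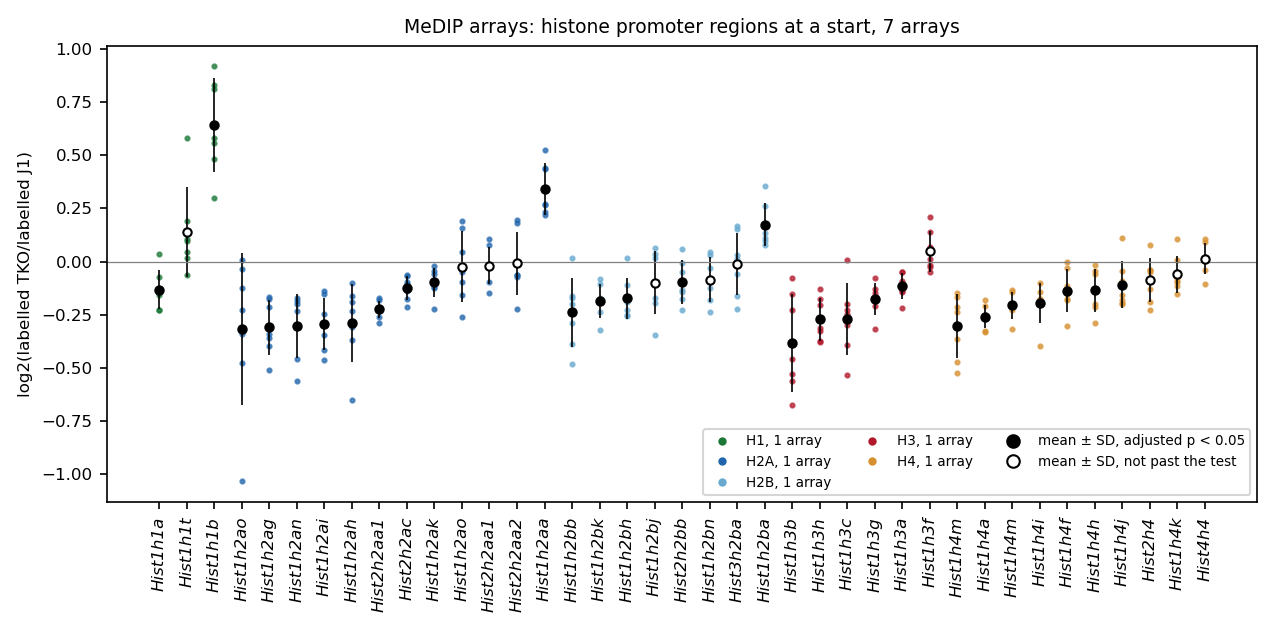
Log2(labelled TKO/labelled J1) of the 39 histone promoter regions at a start, by class; small points are the 7 arrays, large points the mean ± SD, filled where the adjusted p was under 0.05. With the test passed, Hist1h1b, Hist1h2aa and Hist1h2ba lie above 0 and 25 regions lie below 0.

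The lowest region of all members was that of an H3 gene. Hist1h3b, whose window is printed above, ran from -0.68 through a median of -0.46 to -0.08 over 7 arrays, all below 0. Its mean was -0.38 ± 0.23 (limma adjusted p = 0.00084), but only 1 of its 4 probes was above background in both channels on all 7 arrays. With normexp background correction it was -0.32 (adjusted p = 0.16). Hist1h4m, an H4 gene, ran from -0.53 through -0.24 to -0.15 (mean -0.30 ± 0.15, adjusted p = 0.00046) with all 5 probes above background. Hist1h4a was the steadiest H4 region, from -0.33 through -0.25 to -0.18 (mean -0.26 ± 0.06, adjusted p = 5.6e-05). Other classes shared these low values: Hist1h2ag was at -0.31 ± 0.13, Hist1h2an at -0.30 ± 0.15 and Hist1h2bb at -0.24 ± 0.16, each with the test passed. With normexp Hist1h2bb did not pass (-0.29, limma adjusted p = 0.075), while Hist1h2ag and Hist1h2an did. The highest H3 and H4 regions, Hist1h3f (0.05 ± 0.10, adjusted p = 0.29) and Hist4h4 (0.01 ± 0.07, adjusted p = 0.73), did not pass. The lowest H1 region was Hist1h1a, at -0.13 ± 0.09 (adjusted p = 0.0090, 1 of 7 arrays above 0). Its call was lost with normexp (-0.23, limma adjusted p = 0.086), with centring on the mode (adjusted p = 0.058) and with the median over probes (adjusted p = 0.076).

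Hist1h2ao had both ends of the H2A range, in different regions. Of its regions at a start, that from -2623 to 315 bases was at -0.02 ± 0.17 and did not pass (limma adjusted p = 0.71). The other, from -562 to 277 bases, ran from -1.04 through -0.23 to 0.01, with a mean of -0.32 ± 0.36 (adjusted p = 0.021). A single spot of -5.07 on replicate 5 set the lowest value, and without that replicate the mean was -0.20 (adjusted p = 0.019), which is over 1.5 times smaller. Its far region, from -4774 to -4270 relative to the start, ran from 0.14 through 0.40 to 0.83, above 0 on all 7 arrays (mean 0.42 ± 0.21, adjusted p = 0.00031). With normexp that region was at 0.21 (adjusted p = 0.069).

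The ratio of the Hist1h1b promoter came from its 3 most upstream probes. The region ran from 0.30 through 0.58 to 0.92, above 0 on all 7 arrays, with a mean of 0.64 ± 0.22 (adjusted p = 3.3e-05). Counted from the start, the probe at -692 bases ran from 1.30 through 2.41 to 2.68 (mean 2.11 ± 0.59). The probes at -975 and -428 bases averaged 1.14 ± 0.35 and 0.69 ± 0.67. The 3 probes within 250 bases of the start averaged -0.09, -0.05 and -0.08, and none of these passed the test. The upstream probes were dim: they were above background in both channels on 2, 1 and 0 of 7 arrays at -975, -692 and -428 bases, while the 3 nearer probes were so on all 7. With normexp the region was at -0.09 (adjusted p = 0.66), and over the 3 probes above background in both channels it was at -0.07 (adjusted p = 0.071), so its side turned in both.

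The divergent testis pair also lay on the labelled TKO side. The Hist1h2aa region ran from 0.22 through 0.27 to 0.52, with a mean of 0.34 ± 0.12 (adjusted p = 9.2e-05), and the Hist1h2ba region from 0.08 through 0.13 to 0.36, with a mean of 0.17 ± 0.10 (adjusted p = 0.0029). All 7 arrays were above 0 in both, and all of their probes were above background in both channels on all 7 arrays. The ratio was highest past the ends of the genes. The probe 837 bases downstream of the Hist1h2aa start ran from 0.52 through 0.86 to 1.65 (mean 0.90 ± 0.37), and that 753 bases downstream of the Hist1h2ba start from 0.48 through 0.90 to 1.44 (mean 0.88 ± 0.36). Midway between the starts the probe averaged -0.04 ± 0.12. With normexp Hist1h2aa was at 0.13 (adjusted p = 0.073) and Hist1h2ba at 0.12 (adjusted p = 0.028). Hist1h1t, the testis linker histone, ran from -0.06 through 0.10 to 0.58 (mean 0.14 ± 0.21) and did not pass (adjusted p = 0.084), with 0.17 (adjusted p = 0.048) without replicate 6 and 0.07 (adjusted p = 0.16) without replicate 2.

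**Figure D3:**
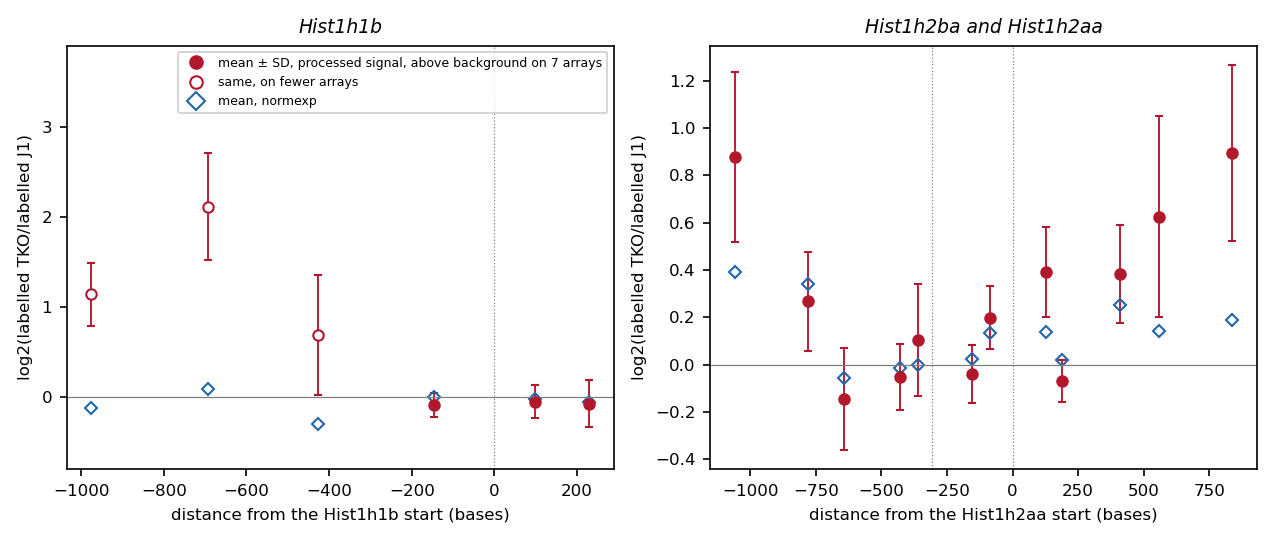
Log2(labelled TKO/labelled J1) of each probe by its distance from the start (dotted lines) of Hist1h1b, left, and of Hist1h2aa and its divergent neighbour Hist1h2ba, right; circles are the mean ± SD of 7 arrays, open where both channels were above background on fewer arrays, and diamonds the mean after normexp. The high Hist1h1b probes are open circles and fall near 0 after normexp, and the outermost probes of the testis pair are filled.

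Single probes gave the profile around the starts. Of the 262 probes, 39 passed on the labelled TKO side, where 22.1% of all probes did, and 82 on the labelled J1 side, where 19.7% did. On the labelled TKO side 10 had a ratio of at least 0.5, where 7.11% of all probes did. In the 200 bases before a histone start the 43 probes had a median of -0.20, against -0.07 for all probes at that distance, and 48.8% of them passed on the labelled J1 side, against 25.9%. From 1 to 200 bases after it the median was -0.14 against -0.06, and in the next span, up to 500 bases, -0.16 against -0.07. From -999 to -500 bases the histone probes had a median of 0.01 and all probes 0.04, but with normexp these were -0.15 and -0.03. From 501 to 1000 bases the 11 histone probes had the lowest median of any span, -0.28 against -0.07. More than 1000 bases upstream the 33 histone probes had a median of -0.01, against 0.12 for all probes. Beyond 1000 bases downstream the 20 histone probes had a median of 0.17 (-0.14 with normexp), against 0.10 for all probes. There 40% of the histone probes passed above 0 and 10% below it, against 35.2% and 10.2% of all probes at that distance. The medians by distance carry no test, since neighbouring probes share fragments.

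**Figure D4:**
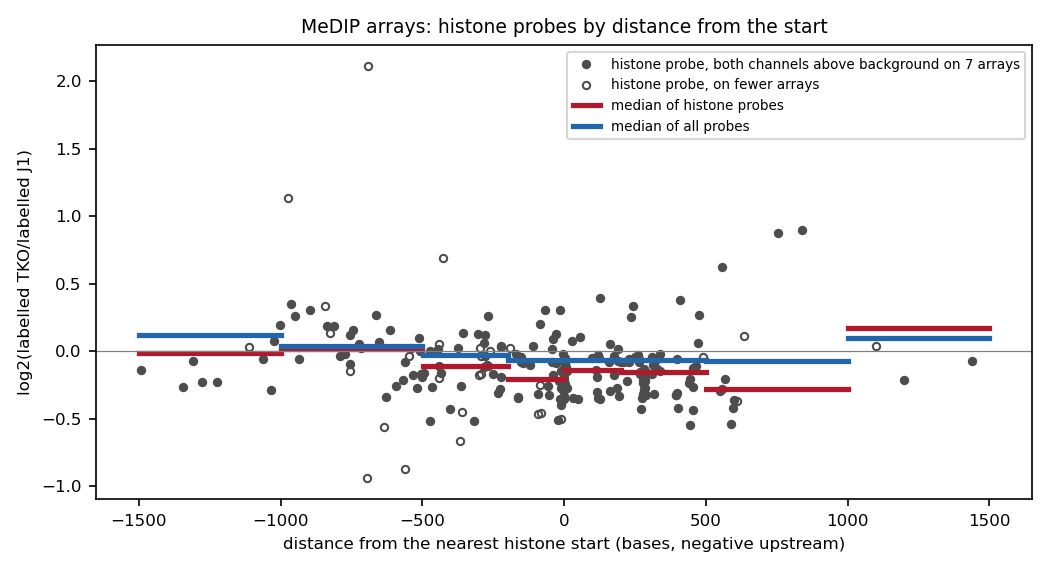
Log2(labelled TKO/labelled J1) of histone probes by distance from the nearest histone start; points are means of 7 arrays, open where a channel was not above background on every array, and bars are medians of histone probes and of all probes in each span. The histone median lies below that of all probes in each span but the most downstream one, and the 2.11 point is Hist1h1b.

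A second fit, chosen after seeing the data, used every probe within 1000 bases of a start and so took in genes without a region. It gave 46 starts of 44 genes, in 40 different sets of probes. Of these, 29 passed on the labelled J1 side, where 32.6% of all 13882 starts did, and 4 on the labelled TKO side, where 25.7% did, with a median of -0.13 against -0.03. Of the 8 starts with no region, 3 passed on the labelled J1 side and 1 on the opposite one, with a median of -0.06. Hist1h2ab, an H2A gene with no region, was at -0.41 ± 0.24 (adjusted p = 0.00081), and Hist1h2bl at -0.28 ± 0.07 (adjusted p = 7.5e-05). Hist1h4d was the only H4 start on the labelled TKO side, at 0.17 ± 0.06 (adjusted p = 0.00087). Hist1h1e, Hist1h2ac and Hist1h2ad did not pass, at 0.03, 0.06 and -0.06.

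The histone promoters were next set against promoters of like CpG content. Over 11121 promoters with a RefSeq window, the median ratio was 0.15 with 0 to 3 CpG, 0.10 with 4 to 7, 0.00 with 8 to 11, -0.02 with 12 to 15, -0.05 with 16 to 23 and -0.06 with 24 or more. The 36 histone regions at a start with a window had medians of -0.16 (n = 2), -0.18 (n = 5), -0.11 (n = 10), -0.20 (n = 9), -0.14 (n = 6) and -0.12 (n = 4) in the same bins. They were below the median of all promoters in each bin, and showed no fall from few to many CpG. The bins hold few members, some share probes, and the difference was not tested. Only the histone set is recorded as limited to regions at a start, so the sets may be unlike. The 5 with 4 to 7 CpG include both Hist1h3b, the lowest, and Hist1h2ba, on the labelled TKO side.

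**Figure D5:**
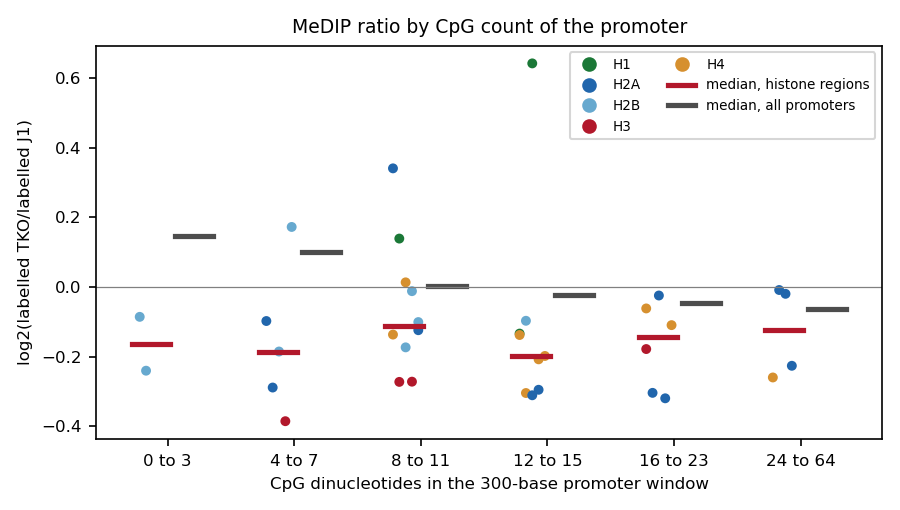
Log2(labelled TKO/labelled J1) of the 36 histone regions at a start with a promoter window, by the number of CpG in it. Points are regions coloured by class, red bars their median and grey bars the median of all promoters in the bin. The histone median lies below the median of all promoters in each of the 6 bins.

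A tested RNA probe and a MeDIP region at a start were both at hand for 16 genes (3 more had regions away from the start only). Hist1h1b was on the TKO side in both, at 0.54 ± 0.26 in RNA and 0.64 ± 0.22 in MeDIP, but the MeDIP side turned with normexp (-0.09) and the RNA call was lost with median centring. Hist1h4i was below 0 in both, at -0.49 ± 0.14 and -0.20 ± 0.09. Hist3h2ba was lower in RNA (-0.61 ± 0.23) with a start region at -0.01 ± 0.15 that did not pass. The testis pair was on the labelled TKO side in MeDIP, and neither gene's probe passed in RNA. Hist1h1a, Hist1h4a, Hist1h2ai, Hist1h2ak, Hist1h2bk, Hist1h4f and Hist2h2ac passed on the labelled J1 side in MeDIP and did not pass in RNA. Hist2h2aa1 did not pass in RNA either. Its MeDIP region at -0.23 ± 0.04 passed on the labelled J1 side, and that at -0.02 ± 0.09 did not pass. For Hist1h1c and Hist3h2a, which were lower in RNA, no region of their own was tested. Among the regulators of histone messages, of 14 regions 3 passed above 0 and 5 below it (30.9% and 26.3% of all regions did), with a median of -0.07. The Slbp regions were at -0.09 ± 0.15 and -0.02 ± 0.03, and neither passed (adjusted p = 0.11 and 0.49). Of 14 chaperone regions 3 passed above 0 and 5 below, of 14 regions of replication-independent variants 4 and 3, and of 19 regions of S phase genes 5 and 3.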

How the data were processed

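The authors scanned the arrays with Agilent Feature Extraction, of which the submitters' processing notes name version 8.5. The files hold an intensity for each spot in 2 channels, per the file headers. The authors' deposited expression table holds log10 ratios. It correlated with the mean scanner log ratio at r = 0.97 once this was turned to TKO over J1 by the likely dye order, with a median of -0.0158, and how it was centred is not stated there. No column of per-sample values was left unused (0).

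Control and uneven spots were left out. Expression used normexp (offset 50) and loess, with array 2 turned. A probe was kept if well above background in either line on all usable arrays, at least 2. MeDIP used processed signals centred on each array's median. In limma 3.58.1 (under R 4.3.3) each feature's ratio was set against 0, with Benjamini-Hochberg adjustment and a threshold of 0.05. Fits were tested on simulated data.

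Members, lists and motifs were chosen with earlier results of these data known. Named were all expression calls, the brightest 2 of each class, the highest and lowest MeDIP region of each class, the testis forms, Slbp, Npat, the Dnmt genes and up to 4 calls of each list. Other genes named (such as Hist2h2be, Hist2h2ac, Hist1h4a, Casp8ap2, Lsm11 and Hist1h2ab) were chosen after their values were seen. Alternatives covered background correction, centring, filters, region definition, slide and left-out arrays. Neither files nor labels name a genome build for the probes, so only distances from a start are printed. The number of arrays limits the precision.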

Additional observations from a re-analysis of the deposited data

Results flagged for a closer look

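In the Hist1h1t promoter region, 1 of 7 MeDIP arrays stood far from the others. Replicate 2 was at 0.58, and the next array was at 0.19. The gap was 0.61 of the whole range, above Dixon's limit for 7 arrays. Of 18 groups of 7 arrays examined, this was the only one past the limit, and chance passes about 1 in 20.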

How the results depend on the processing

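Where no construction explains a change, the cause was not tested. The count of histone probes higher in TKO, 1 as reported, was 2 with Agilent processed signals, 2 with uneven spots kept, 0 with median centring and 0 with no filter on dim probes. It was 0 to 1 with an array left out, since Hist1h1b has only arrays 1 and 2. The count lower in TKO, 4 as reported, was 3 to 7 with an array left out, with 7 without array 3, where 38 probes were tested, and Hist1h1c, Hist3h2ba and Hist1h4i passed with any array left out. On the MeDIP arrays, 4 regions above 0 and 26 below 0 with the test passed became 1 and 16 with normexp, and 7 and 19 with centring on the mode. The 1 region of at least 0.5 on the labelled TKO side became 0 with normexp, with loess, with the median over probes and over probes above background. With loess 1 region reached that size on the labelled J1 side, and the median of the regions was -0.159. Hist1h1b reversed to -0.0940 with normexp and -0.0745 over probes above background. Otherwise counts stayed within 1.5 times the reported one and medians within 1 SD of the arrays' medians. Those expression alternatives gave 3 to 6 probes lower and medians of -0.243 to -0.0242 (the last without array 1). The MeDIP ones gave 3 to 6 regions above 0, 19 to 31 below 0 and medians of -0.149 to -0.0690, and with an array left out 4 to 5, 22 to 26 and -0.125 to -0.0974. Of the single-gene values, 275 kept their side and call, 12 moved, 11 lost the call and 5 gained one, such as Hist1h1e with uneven spots kept (0.46, adjusted p = 0.034) and Hist1h3f over probes above background (0.11, adjusted p = 0.041). The lower Hist1h2ao region at a start missed the threshold without replicate 4 (-0.29, adjusted p = 0.060). The slide block used the correlation of part 2 for part 1, and could not be fitted for expression. Where a dim channel limits a probe, as at Hist1h1b, the ratio depends on the background correction. Each array's ratio already sets both lines against each other on 1 array; beyond this, no paired analysis was possible because no groups of arrays are compared.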
